A study of Drosophila melanogaster with 60 samples.

Results

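The proteasome is the protease that degrades ubiquitin-tagged proteins in the cytosol and nucleus. Its core particle is a barrel of stacked rings, in which alpha subunits form the outer rings that gate entry and beta subunits form the inner rings that hold the proteolytic sites. The regulatory particle caps the barrel: a base of Rpt ATPases and Rpn subunits binds and unfolds substrates, and a lid of further Rpn subunits removes ubiquitin. The genes described here are those whose listed name or current symbol begins with Prosalpha, Prosbeta, Rpn or Rpt, older Pros names included. They came to 33 of 7648 genes in the table of the overexpression experiment and to 33 of 7444 in that of the RNAi experiment. The core particle accounts for 15 of them in either table (8 alpha ring genes with the paralog Prosalpha1R, and 7 beta ring genes). The other 18 encode the regulatory particle (6 base ATPases, 4 base subunits without ATPase activity and 8 lid subunits). The members lie on all major chromosome arms, with 7 core and 4 regulatory genes on 2R. Of 13 testis copies of proteasome genes looked for, such as Prosalpha3T and Rpt3R, 0 were listed.

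The samples were heads of Drosophila melanogaster, assayed by 3′ RNA-seq, which reads the poly(A) end of transcripts. They were taken at 3, 7, 11, 15, 19 and 23 h of Zeitgeber time (ZT, counted from lights on). All flies carried the Tim-gal4 driver, which follows the expression of the clock gene timeless. In the overexpression experiment the driver alone (conOE) was set against the driver with UAS-cbtFLAG (labelled OE), 12 libraries each in 2 courses. In the RNAi experiment the driver with UAS-Dcr2 (conRNAi) was set against the driver with a UAS construct for RNAi against cabut (cbt, a zinc finger transcription factor gene), whose label names no UAS-Dcr2 (labelled RNAi), 18 libraries each in 3 courses. The labels give no sex or age and do not say that courses came from separate flies, so the p-values reflect only how these libraries spread, which may be technical.

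Values are reads divided by a size factor of the library, called normalised reads. Recovered depth ran from 349019 to 13922764 reads, with 7 of 60 libraries under 1000000. Behind single values of the 33 genes stood a median of 203.5 reads in conOE, 154.5 in the libraries labelled OE, 324.5 in conRNAi and 202.5 in the libraries labelled RNAi. The fewest were 5 reads, for Rpn1 in a library labelled OE. The targeted gene went against its label: cbt stood at 284.9 ± 31.4 in conOE and at 95.4 ± 25.5 in the libraries labelled OE (± SD, n = 12 each), a difference of -1.61 on the log2 scale (limma adjusted p = 3.41e-11). It was at 317.7 ± 36.7 and 308.2 ± 55.5 (SD, n = 18 each) in conRNAi and the libraries labelled RNAi (adjusted p = 0.618). Directions below are therefore those of the labelled libraries against their controls. A transgene transcript with another 3′ end would not be counted as cbt.

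Most core particle genes rose in the libraries labelled OE, and fewer regulatory genes did. By limma's test over all genes (adjusted p under 0.05), 20 of the 33 members were higher and 0 lower, where 22.7% of all genes were higher and 18.6% lower. Among core genes 13 of 15 rose, with a median log2 change of 0.37, a 1.29-fold difference. Without Prosalpha1 and Prosalpha1R, described next, it was 11 of 13 with a median of 0.29. Among regulatory genes 7 of 18 rose, with a median of 0.18, or 1.13-fold. The median over all genes was 0.01. Standard errors of single members ran from 0.0689 to 0.0921 for core genes and from 0.0659 to 0.122 for regulatory genes. Markers of other head cells moved in the same libraries: 7 of 9 photoreceptor markers fell and 0 rose, 3 of 7 neuronal markers fell and 0 rose, and 4 of 4 glial markers fell. Of 6 fat body markers 3 rose and 1 fell, and of 4 measured muscle markers 1 fell. The summed level ran from 78552 to 97775 normalised reads in conOE and from 65775 to 84544 in the libraries labelled OE for photoreceptor markers, from 1193 to 1423 and from 806.8 to 1082 for neuronal markers, and from 1522 to 2494 and from 1112 to 1571 for glial markers. The corresponding sums were 125571 to 345176 and 126218 to 397379 for fat body markers, most of it from the yolk protein genes, and 1954 to 3077 and 2035 to 3394 for muscle markers. The neuronal sums did not overlap between groups, and the other 4 did. Within the fat body list the larval serum protein genes rose most, Lsp1beta by 6.11 (limma adjusted p = 1.16e-12), from 970.6 ± 1767 to 36187 ± 12718 normalised reads, and Lsp2 by 2.64 (adjusted p = 2.37e-07), from 915.4 ± 571.2 to 5394 ± 2733 (± SD, n = 12 each). Every listed transcript had at least 1 read in each library of its experiment, so the presence of reads for a listed marker carries no information on cell types. The lowest marker value was 3.01 normalised reads, for a neuronal marker. The part of the markers in the proteasome result was not tested, and in whole heads fewer cells of a type and less RNA per cell cannot be told apart.

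**Figure D1:**
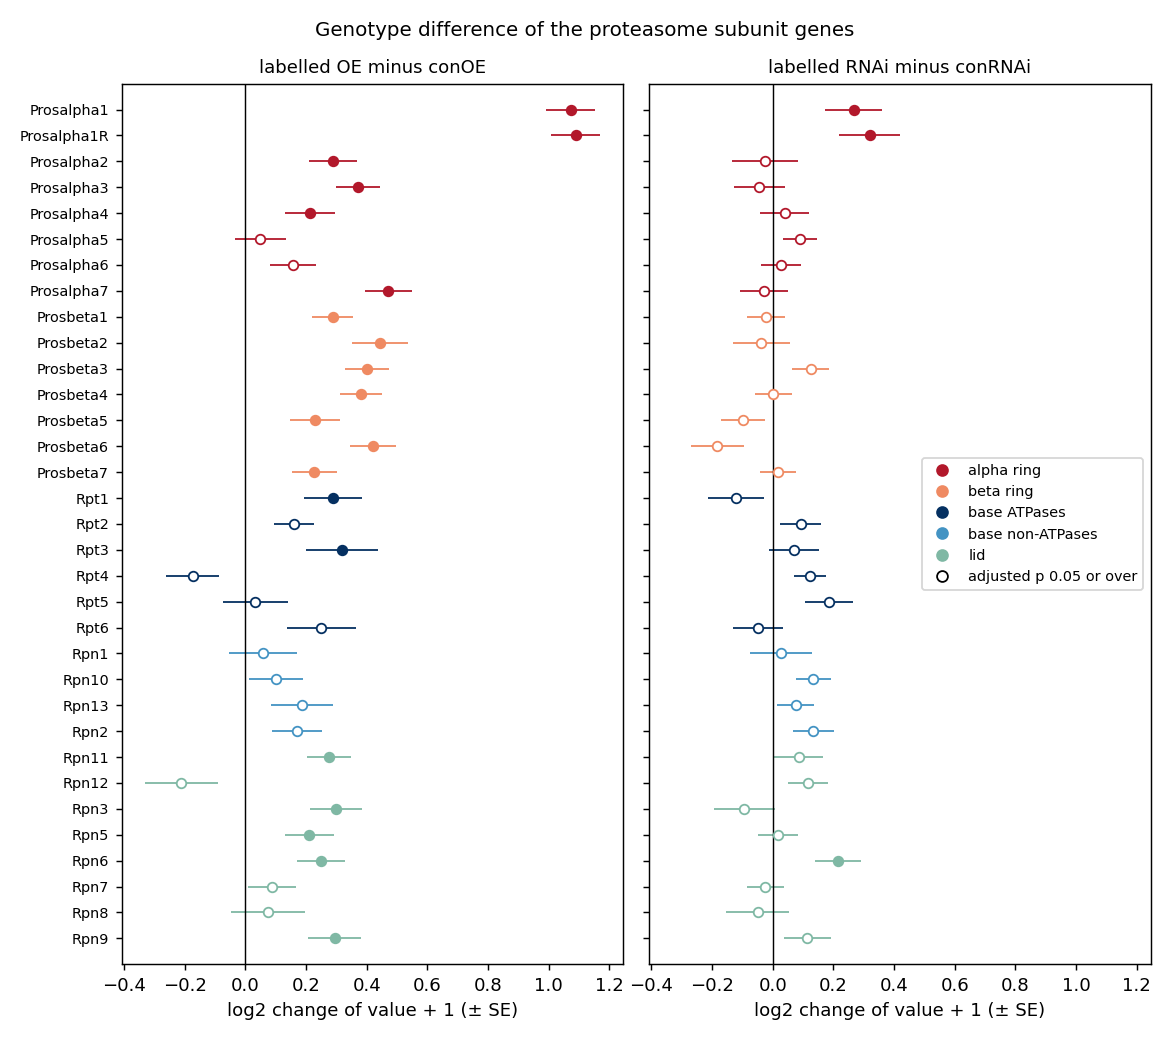
Log2 change of value + 1 (x axis, with SE) of each of the 33 genes, in rows by role, for the overexpression experiment (left) and the RNAi experiment (right); filled points have a limma adjusted p under 0.05. On the left all 7 beta ring genes and 6 of 8 alpha ring genes are filled and to the right of 0, and on the right 3 points are filled.

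The alpha ring held the pair of genes with the highest log2 changes among the members. Prosalpha1 (CG18495) and its close paralog Prosalpha1R (CG30382) encode the alpha1 subunit. Prosalpha1 lay between 86.7 and 125.5 normalised reads, median 118.8, in the 12 conOE libraries and between 168.9 and 274.4, median 240.6, in the 12 libraries labelled OE. All labelled libraries were above all controls. Mean ± SD (n = 12 each) went from 112.0 ± 13.1 to 236.8 ± 27.3, a log2 difference of 1.07 with SE 0.0809 (limma adjusted p = 3.71e-11). Prosalpha1R lay between 79.5 and 130.7, median 113.7, in conOE and between 194.0 and 277.2, median 237.5, in the libraries labelled OE, again with no overlap. The group mean went from 111.6 ± 14.2 to 238.0 ± 25.9 (± SD, n = 12 each), a log2 difference of 1.09 with SE 0.0815 (limma adjusted p = 3.36e-11). The difference stood at every time: the ratio of means ran from 1.80 (ZT23) to 2.39 (ZT11) for Prosalpha1 and from 1.95 (ZT23) to 2.40 (ZT19) for Prosalpha1R.

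Prosalpha1 and Prosalpha1R are close copies, and their values moved together. Prosalpha1 took a median of 49.7% of the pair's sum in conOE and 50.001% in the libraries labelled OE, with single libraries between 45.6% and 61.2%. How reads that match both copies were assigned is not given in the sources used here, so their separate values are uncertain and they may amount to 1 measurement. In the Release 6 annotation, a later build than the files use, the 3′ ends of both lie within genes of the opposite strand, phr and CG18853, and whether counting used strand is not given. Neither of these is listed in the overexpression table. Of the 5 genes to each side of the pair in that annotation, 5 others are listed there and 3 rose, cathD by 1.64 (adjusted p = 5.2e-14), TTLL12 by 0.70 (adjusted p = 3.22e-05) and CG12159 by 0.49 (adjusted p = 0.00105), while puml stood at 0.03 and CG12822 at 0.04. Their part in the values of the pair was not tested.

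The other alpha ring genes changed by smaller amounts. Prosalpha7 (CG1519) rose by 0.47 (adjusted p = 1.8e-05), Prosalpha3 (CG9327) by 0.37, Prosalpha2 (CG5266) by 0.29 and Prosalpha4 (CG3422) by 0.21 on the log2 scale, each higher at 6 of 6 times. Prosalpha6 (CG4904) stood at 0.16 (limma adjusted p = 0.097) and Prosalpha5 (CG10938) at 0.05 (adjusted p = 0.676). The Prosalpha4 call was the least firm of the ring, at an adjusted p of 0.0395, and was lost in 11 of 18 alternative fits.

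All 7 beta ring genes rose, by 0.23 to 0.44. These encode the subunits of the proteolytic chamber, of which beta1, beta2 and beta5 carry the active sites. Prosbeta3 (CG11981) lay between 187.9 and 305.4 normalised reads, median 262.3, in conOE and between 276.7 and 406.7, median 341.6, in the libraries labelled OE, 10 of which were above all controls. On average it went from 258.7 ± 30.2 to 341.7 ± 37.5 (± SD, n = 12 each), which is a log2 difference of 0.40 with SE 0.0718 (limma adjusted p = 6.15e-05). Prosbeta6 (CG4097) lay between 207.1 and 307.6, median 269.7, in conOE and between 296.4 and 491.1, median 363.9, in the libraries labelled OE, with 10 of 12 above all controls. Between genotypes the mean moved from 269.5 ± 28.5 to 362.1 ± 53.1 (± SD, n = 12 each), a log2 difference of 0.42 with SE 0.0759 (limma adjusted p = 7.13e-05).

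Prosbeta4 (CG17331), chosen after its values were seen, was the remaining member whose groups did not overlap, so that 3 of 33 members were apart upward where 4.17% of all genes were. Downward 0 members and 1.82% of all genes were apart. Its conOE libraries lay between 304.7 and 367.1 and those labelled OE between 373.7 and 596.3, a log2 change of 0.38 (limma adjusted p = 7.54e-05). Of the active-site subunits, Prosbeta2 (CG3329, trypsin-like site) rose by 0.44 (adjusted p = 0.000356), Prosbeta1 (CG8392, caspase-like site) by 0.29 (adjusted p = 0.00149) and Prosbeta5 (CG12323, chymotrypsin-like site) by 0.23 (adjusted p = 0.0292). Prosbeta7 (CG12000) rose by 0.23 (adjusted p = 0.0157). The Prosbeta5 call was lost in 11 and the Prosbeta7 call in 6 of 18 alternative fits.

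**Figure D2:**
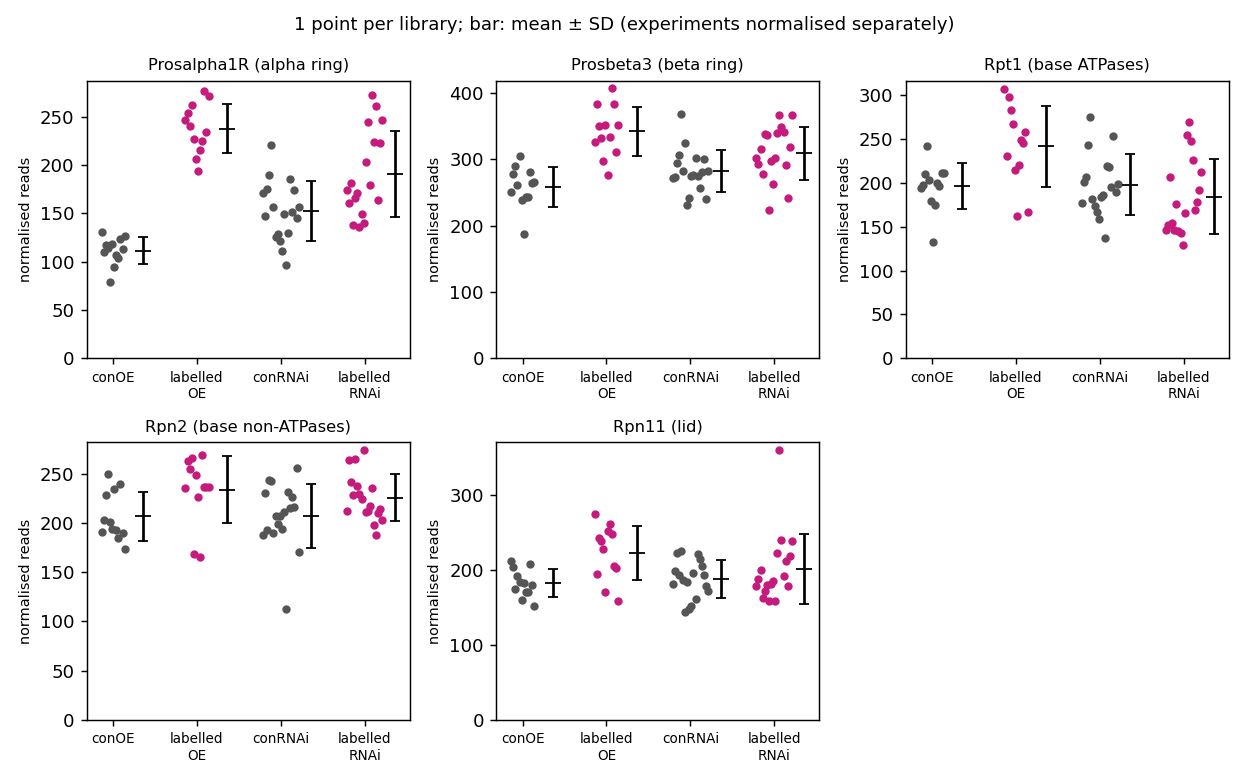
Normalised reads (y axis, from 0) of the member of lowest p of each role in the overexpression experiment, 1 point per library, with mean and SD as bars; the experiments were normalised separately. Prosalpha1R separates the libraries labelled OE from conOE without overlap (194.0 to 277.2 against 79.5 to 130.7), while the groups of the other 4 genes overlap.

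Regulatory genes changed less evenly. Of the base ATPases, which thread substrates into the core, Rpt1 (CG1341) lay between 132.7 and 241.7 normalised reads, median 198.5, in conOE and between 161.7 and 306.9, median 247.3, in the libraries labelled OE. The groups overlapped, with 7 of 12 labelled libraries above all controls. Mean ± SD (n = 12 each) went from 195.8 ± 26.2 to 241.7 ± 46.1, a log2 difference of 0.29 with SE 0.0954 (limma adjusted p = 0.0168). The 3′ end of Rpt1 lies within the same-strand gene CG17985 in the Release 6 annotation, and CG17985 fell by 0.16 (adjusted p = 0.0466), a call lost in 10 of 18 alternative fits. Rpt3 (CG16916) lay between 63.3 and 138.4, median 104.4, in conOE and between 68.3 and 165.8, median 136.3, in the libraries labelled OE, with 6 of 12 above all controls. The group mean went from 105.0 ± 21.5 to 131.5 ± 26.6 (± SD, n = 12 each), a log2 difference of 0.32 with SE 0.119 (limma adjusted p = 0.0333). Both calls were lost without OE course 1 (adjusted p = 0.333 for Rpt1 and 0.253 for Rpt3) and without conOE course 2 (adjusted p = 0.162 and 0.213). That of Rpt3 was also lost without conOE course 1 (adjusted p = 0.0641). Counted over all 18 alternative fits, the Rpt3 call was lost in 9, both rescalings among them, and the Rpt1 call in 5.

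The other 4 ATPases did not pass. Rpt6 (CG1489) stood at 0.25 (limma adjusted p = 0.0782), Rpt2 (CG5289) at 0.16 (adjusted p = 0.0555), Rpt5 (CG10370) at 0.03 and Rpt4 (CG3455) at -0.17 (adjusted p = 0.118). For Rpt6, 9 of 12 labelled libraries were above all controls, but course 2 at ZT3, a library under 1000000 reads, gave 93.4 normalised reads from 26 reads. Without libraries under 1000000 reads Rpt6 passed (0.36, adjusted p = 0.000585), as it did without OE course 2 (0.46, adjusted p = 0.000117), and it stood at 0.04 without OE course 1. It also passed without ZT3 (adjusted p = 0.00102), and Rpt2 passed without ZT15 (adjusted p = 0.0436).

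None of the 4 base subunits without ATPase activity passed. Rpn2 (CG11888), a scaffold of the base, lay between 173.1 and 250.0 normalised reads, median 197.5, in conOE and between 165.8 and 268.5, median 236.7, in the libraries labelled OE. On average it went from 206.6 ± 24.7 to 233.9 ± 34.0 (± SD, n = 12 each), which is a log2 difference of 0.17 with SE 0.0827 (limma adjusted p = 0.10001). The ubiquitin receptor gene Rpn13 (CG13349) lay between 184.7 and 325.1, median 238.4, in conOE and between 204.6 and 438.5, median 246.3, in the libraries labelled OE, giving a log2 difference of 0.19 with SE 0.102 (limma adjusted p = 0.145) between means of 235.9 ± 36.8 and 271.8 ± 64.5 (± SD, n = 12 each). Both genes had overlapping groups. Left-out courses moved Rpn13 between 0.02 and 0.35, and it passed without OE course 1 (adjusted p = 0.014). The ubiquitin receptor gene Rpn10 (CG7619) stood at 0.10 and the scaffold gene Rpn1 (CG7762) at 0.06.

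In the lid 5 of 8 genes rose. Rpn11 (CG18174), the deubiquitinating subunit, lay between 152.0 and 211.8 normalised reads, median 181.2, in conOE and between 157.9 and 274.3, median 232.8, in the libraries labelled OE, of which 7 were above all controls. Between genotypes the mean moved from 182.5 ± 18.8 to 222.9 ± 36.4 (± SD, n = 12 each), a log2 difference of 0.27 with SE 0.0723 (limma adjusted p = 0.00333). Rpn3 (CG10484), a structural lid subunit, lay between 103.8 and 158.3, median 147.8, in conOE and between 143.7 and 190.7, median 167.5, in the libraries labelled OE, with 9 of 12 above all controls. Mean ± SD (n = 12 each) went from 137.9 ± 21.03 to 168.6 ± 16.8, a log2 difference of 0.30 with SE 0.0855 (limma adjusted p = 0.00655). The Rpn3 controls differed by course, with means of 154.2 and 121.7 in conOE courses 1 and 2, and the call was lost without conOE course 2 (0.12, adjusted p = 0.355) and, at an adjusted p of 0.0613, without OE course 1.

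Rpn9 (CG10230) rose by 0.29 (limma adjusted p = 0.00908), Rpn6 (CG10149), which in yeast braces lid against core, by 0.25 (adjusted p = 0.0144) and Rpn5 (CG1100) by 0.21 (adjusted p = 0.0389). The Rpn5 call was lost in 12 of 18 alternative fits, more than that of any other member, both rescalings among them, that of Rpn6 in 5, without conOE course 2 or OE course 2 for example, and that of Rpn9 in 3. At the 3′ end of Rpn9, the opposite-strand gene CG10365 fell by 0.34 (adjusted p = 0.00837). Rpn7 (CG5378) stood at 0.09, Rpn8 (CG3416), the partner of Rpn11, at 0.07 and Rpn12 (CG4157) at -0.21 (adjusted p = 0.169). Rpn12 passed as lower without OE course 1 (-0.40, adjusted p = 0.0396). Rpn12 and Rpt4 were the 2 members of 33 with a negative log2 change. The labelled library of course 2 at ZT23 held 5 reads of Rpn12 and 5 of Rpn1, so the low ends of both ranges rest on few reads.

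Of the 20 calls, 8 held in all 18 alternative fits: Prosalpha1, Prosalpha1R, Prosalpha3, Prosalpha7, Prosbeta2, Prosbeta3, Prosbeta4 and Prosbeta6. All 8 are core genes, and each of the 7 regulatory calls was lost in at least 2 fits. When single courses were left out, 9 to 11 core and 1 to 6 regulatory genes were higher. Without conOE course 2 these were 9 core genes and 1 regulatory gene. Without conOE course 1 there were 4 regulatory genes, as there were without OE course 1, when Rpn3, Rpn9, Rpt1 and Rpt3 lost their calls and Rpn13 gained one. Under median-ratio scaling 11 core and 5 regulatory genes were higher.

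The same values, averaged within each library, give the difference between particles library by library and are not further evidence for it. The mean log2 value of the core genes lay between 7.51 and 7.88 in conOE and between 7.94 and 8.33 in the libraries labelled OE, without overlap. That of the regulatory genes lay between 7.14 and 7.37 in conOE and between 7.12 and 7.51 in the libraries labelled OE, with overlap. Core minus regulatory was 0.48 ± 0.0598 in conOE and 0.74 ± 0.106 in the libraries labelled OE (SD, n = 12 each), a shift of 0.26, and every labelled library (0.63 to 1.01) was above every control (0.34 to 0.56). Counting the Prosalpha1 pair as 1 gene gave a shift of 0.21, still without overlap. With both copies left out it was 0.15 (0.62 ± 0.0550 against 0.78 ± 0.114, SD, n = 12 each), and the groups overlapped, with 8 of 12 labelled libraries above all controls. With the pair counted as deposited, the shift was 0.21 to 0.31 when courses or shallow libraries were left out or settings changed. No test was made of this score, since its members were chosen, and its absolute size carries no meaning because genes of different transcripts are averaged. The highest value, 1.01, was course 2 at ZT23, the library in which Rpn1 and Rpn12 had 5 reads.

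**Figure D3:**
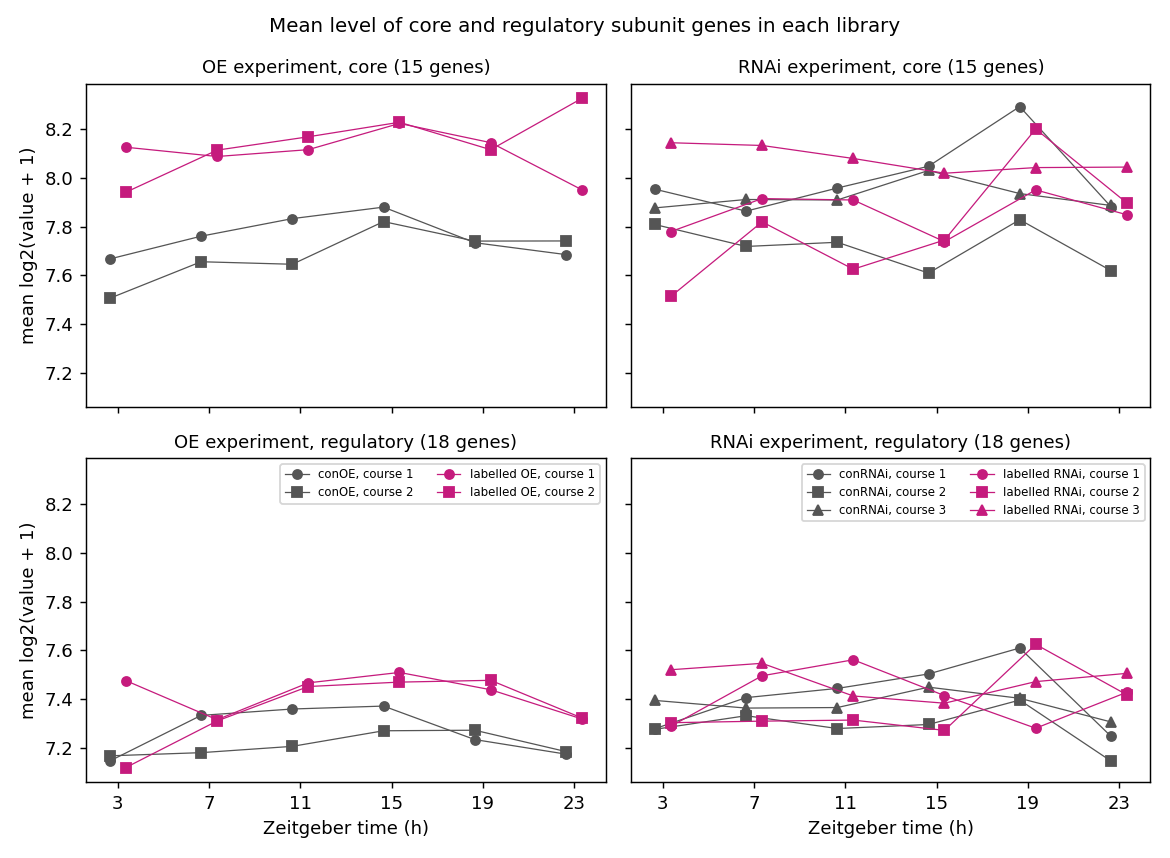
Mean log2(value + 1) of the 15 core genes (top) and 18 regulatory genes (bottom) in each library (y axis) by Zeitgeber time in hours (x axis), for the overexpression experiment (left) and the RNAi experiment (right), 1 line per course. Core lines of the libraries labelled OE run above those of conOE at all 6 times, the lines of the regulatory genes overlap, and in the RNAi experiment the lines of both genotypes cross.

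**Figure D4:**
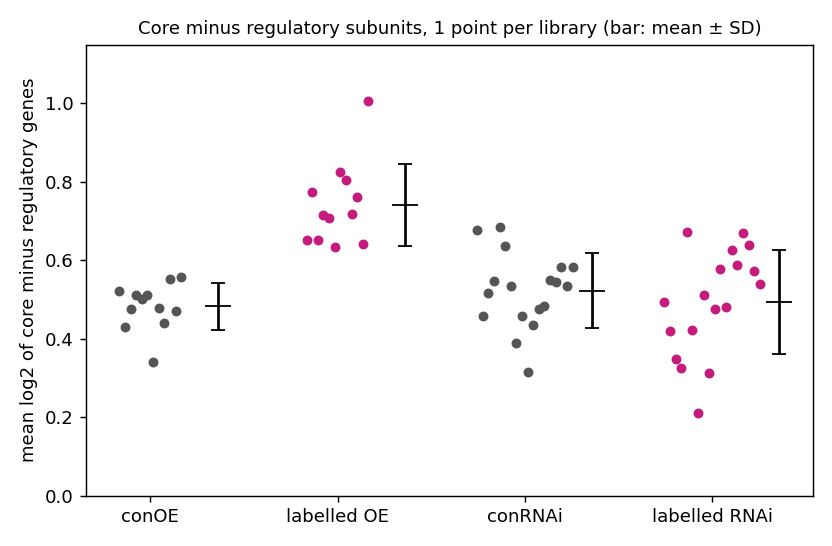
Difference between the mean log2 value of core and of regulatory genes (y axis, from 0), 1 point per library, with mean and SD as bars. The 12 libraries labelled OE lie between 0.63 and 1.01, above the 12 conOE libraries at 0.34 to 0.56, and the RNAi groups overlap. Without Prosalpha1 and Prosalpha1R the overexpression groups overlap as well.

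In the RNAi experiment the proteasome genes as a group stayed near the background. By limma's test 3 of 33 members were higher and 0 lower, where 9.23% of all genes were higher and 13.1% lower. The 3 genes were Prosalpha1, Prosalpha1R and Rpn6, which had also risen in the libraries labelled OE, and 0 members were called in opposite directions. Core genes had a median log2 change of 0.00 and regulatory genes of 0.08, beside -0.01 for all genes. No member's groups were apart, where 0.282% of all genes were apart upward and 0.403% downward. Standard errors of single members ran from 0.0534 to 0.109. The experiments were normalised separately, and the difference between them was not tested. Of the markers, 2 of 9 photoreceptor genes fell, 3 of 7 neuronal genes rose and 1 fell, 2 of 4 glial genes rose, 1 of 6 fat body genes rose and 4 fell, and 1 of 4 muscle genes rose. Their sums in conRNAi and in the libraries labelled RNAi ran from 77027 to 102429 and from 67683 to 95635 for photoreceptor genes, from 1163 to 1590 and from 1158 to 1599 for neuronal genes and from 1710 to 2232 and from 2089 to 2920 for glial genes. Fat body sums were 123002 to 313063 and 92131 to 370437, and muscle sums 1774 to 2893 and 1931 to 3797. Their part in the RNAi result was not tested.

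Prosalpha1 and Prosalpha1R rose with overlapping groups. Prosalpha1 lay between 107.4 and 227.6 normalised reads, median 157.6, in the 18 conRNAi libraries and between 119.6 and 260.2, median 190.8, in the 18 libraries labelled RNAi. The group mean went from 158.4 ± 28.3 to 193.0 ± 44.3 (± SD, n = 18 each), a log2 difference of 0.27 with SE 0.0938 (limma adjusted p = 0.0335). Prosalpha1R lay between 96.6 and 221.1, median 150.5, in conRNAi and between 136.4 and 272.8, median 177.2, in the libraries labelled RNAi, giving a log2 difference of 0.32 with SE 0.0997 (limma adjusted p = 0.0157) between means of 152.2 ± 31.0 and 191.0 ± 44.2 (± SD, n = 18 each). The Prosalpha1 call was lost in 8 of 20 alternative fits, such as without libraries under 1000000 reads or without ZT7, ZT11, ZT19 or ZT23. That of Prosalpha1R was lost in 4, such as without ZT23. Leaving out single courses also decided both. For Prosalpha1 the course means were 179.6, 129.1 and 166.5 in conRNAi and 166.5, 175.1 and 237.3 in the libraries labelled RNAi. Labelled course 3 was high and control course 2 low, and both calls were lost without either. Without labelled course 3 Prosalpha1 stood at 0.10 (adjusted p = 0.426) and Prosalpha1R at 0.17 (adjusted p = 0.211), and without control course 2 they stood at 0.13 (adjusted p = 0.375) and 0.17 (adjusted p = 0.256). The overlapping genes phr and CG18853 rose by 0.88 (adjusted p = 1.45e-09) and 0.96 (adjusted p = 7.98e-08) in this experiment, and their part in these values was not tested.

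Among beta ring genes 0 of 7 passed. Prosbeta3 lay between 231.3 and 368.2 normalised reads, median 278.1, in conRNAi and between 223.9 and 366.9, median 308.6, in the libraries labelled RNAi, giving a log2 difference of 0.13 with SE 0.0609 (limma adjusted p = 0.141) between means of 282.1 ± 32.3 and 308.7 ± 40.4 (± SD, n = 18 each). Prosbeta6 lay between 228.0 and 369.6, median 285.9, in conRNAi and between 156.9 and 397.4, median 241.8, in the libraries labelled RNAi, giving a log2 difference of -0.18 with SE 0.0884 (limma adjusted p = 0.141) between means of 283.1 ± 34.3 and 254.8 ± 63.5 (± SD, n = 18 each). Both genes overlapped between groups. Prosbeta6 differed widely by course: labelled courses 1 and 2 had means of 227.9 and 209.9 and labelled course 3 had 326.8, and without that course Prosbeta6 passed as lower (-0.38, adjusted p = 0.000143), as it did without conRNAi course 2 (-0.27, adjusted p = 0.0448). With replicate number as a covariate Prosbeta6 passed as lower too. Prosalpha3 also passed as lower without conRNAi course 2 (-0.20, adjusted p = 0.0414). The remaining core genes, by log2 change, were Prosbeta7 at 0.02, Prosbeta4 at 0.00, Prosbeta1 at -0.02, Prosbeta2 at -0.04, Prosbeta5 at -0.10, Prosalpha5 at 0.09, Prosalpha4 at 0.04, Prosalpha6 at 0.03, Prosalpha2 at -0.03, Prosalpha7 at -0.03 and Prosalpha3 at -0.04.

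Of the regulatory genes Rpn6 passed. It lay between 137.4 and 192.3 normalised reads, median 169.0, in conRNAi and between 127.9 and 307.0, median 191.9, in the libraries labelled RNAi, 9 of which were above all controls. On average it went from 167.8 ± 15.7 to 197.9 ± 41.3 (± SD, n = 18 each), which is a log2 difference of 0.21 with SE 0.0764 (limma adjusted p = 0.0369). The labelled courses had means of 216.5, 203.5 and 173.6, and the call was lost in 10 of 20 alternative fits, with an adjusted p of 0.259 without RNAi course 1. The lid gene Rpn12 lay between 105.2 and 153.1, median 128.5, in conRNAi and between 97.3 and 174.9, median 136.0, in the libraries labelled RNAi, giving a log2 difference of 0.12 with SE 0.0658 (limma adjusted p = 0.214) between means of 128.3 ± 13.4 and 140.2 ± 22.0 (± SD, n = 18 each).

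No base gene passed, and Rpt5, Rpn10 and Rpt4 came closest to the threshold. Rpt5 lay between 64.4 and 126.1 normalised reads, median 98.7, in conRNAi and between 79.1 and 134.5, median 119.1, in the libraries labelled RNAi, giving a log2 difference of 0.19 with SE 0.0787 (limma adjusted p = 0.085) between means of 99.7 ± 14.9 and 113.7 ± 17.2 (± SD, n = 18 each). Rpt4 lay between 182.1 and 253.6, median 217.0, in conRNAi and between 194.7 and 303.4, median 225.5, in the libraries labelled RNAi, giving a log2 difference of 0.12 with SE 0.0534 (limma adjusted p = 0.096) between means of 214.3 ± 18.2 and 234.5 ± 30.5 (± SD, n = 18 each). Both had overlapping groups. Rpn10 lay between 165.0 and 248.4, median 203.3, in conRNAi and between 178.9 and 278.2, median 223.6, in the libraries labelled RNAi, giving a log2 difference of 0.13 with SE 0.0581 (limma adjusted p = 0.0947) between means of 206.1 ± 19.01 and 226.7 ± 25.4 (± SD, n = 18 each). Rpn2 lay between 112.7 and 255.8, median 209.4, in conRNAi and between 187.5 and 273.6, median 220.4, in the libraries labelled RNAi, giving a log2 difference of 0.13 with SE 0.0676 (limma adjusted p = 0.161) between means of 207.4 ± 32.5 and 225.6 ± 23.7 (± SD, n = 18 each). These groups overlapped too. Some of these genes passed as higher in single alternatives, Rpt5 without RNAi course 2 (0.29, limma adjusted p = 0.00762), Rpt4 without libraries under 1000000 reads (adjusted p = 0.0212) or ZT23 (adjusted p = 0.0369) and Rpn10 without RNAi course 1 (adjusted p = 0.0443). The other regulatory genes were Rpn9 at 0.11, Rpt2 at 0.09, Rpn11 at 0.09, Rpn13 at 0.08, Rpt3 at 0.07, Rpn1 at 0.03, Rpn5 at 0.02, Rpn7 at -0.02, Rpn8 at -0.05, Rpt6 at -0.05, Rpn3 at -0.09 and Rpt1 at -0.12.

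Courses of a genotype differed in their core genes in the RNAi experiment. The mean log2 value of the core genes averaged 8.001, 7.72 and 7.93 over conRNAi courses 1, 2 and 3 and 7.86, 7.80 and 8.08 over the labelled courses. Over all libraries it lay between 7.61 and 8.29 in conRNAi and between 7.51 and 8.202 in the libraries labelled RNAi. Core minus regulatory was 0.52 ± 0.0950 and 0.49 ± 0.132 (SD, n = 18 each), a shift of -0.03, less than 1 SD. The median SD of single core genes between libraries, on the log2 scale, was 0.17 in the overexpression experiment and 0.24 in the RNAi experiment. For regulatory genes it was 0.217 and 0.219, and for all genes 0.33 and 0.31.

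**Figure D5:**
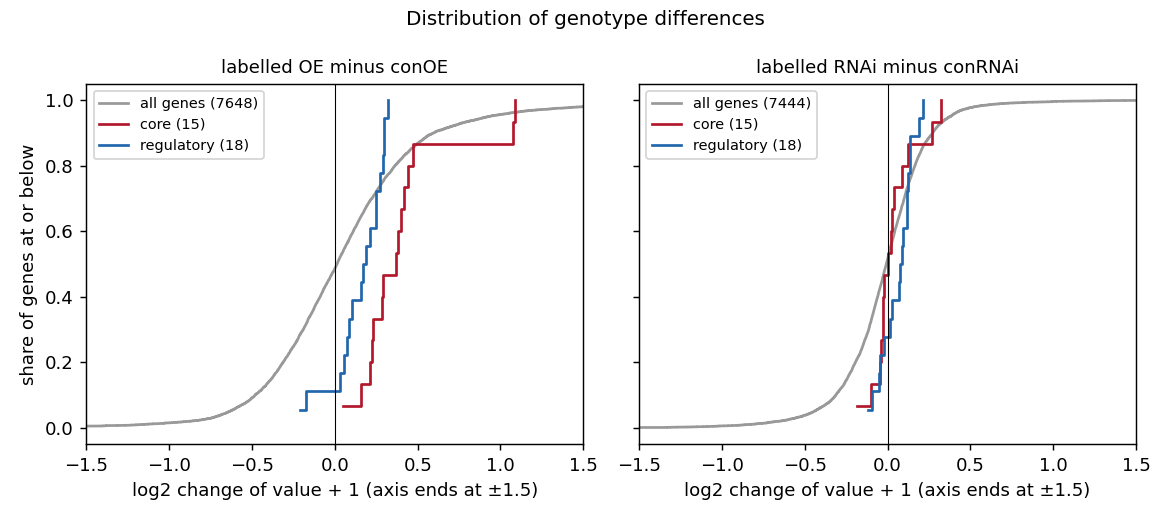
Cumulative share of genes (y axis) at or below a log2 change (x axis, ending at ±1.5) for all genes, the 15 core genes and the 18 regulatory genes. In the overexpression experiment (left) the core curve lies to the right, with its median at 0.37 beside 0.18 for regulatory genes and 0.01 for all genes, and in the RNAi experiment (right) the curves cross near 0.

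Genes that build, feed or control the proteasome were counted beside the shares of all genes given above, 22.7% higher and 18.6% lower in the overexpression experiment and 9.23% and 13.1% in the RNAi experiment. No list is described as differing from these shares. Among 10 measured genes for assembly, activators and shuttle proteins, 1 rose and 2 fell in the libraries labelled OE. Sem1, a small lid-associated protein in yeast that the naming rule leaves out, rose by 0.56 (limma adjusted p = 1.49e-05). Pomp, the maturation factor of the core particle, fell by 0.34 (adjusted p = 0.00149) and PI31, a proteasome-binding regulator, by 0.21 (adjusted p = 0.0267). Among 11 measured in the RNAi experiment 0 rose and 2 fell, PI31 by 0.26 (adjusted p = 0.00129) and the ubiquilin gene Ubqn, a shuttle factor, by 0.18 (adjusted p = 0.0232). The PI31 call of the overexpression experiment was lost in 8 of 18 alternative fits.

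Of 8 genes for ubiquitin, its activating enzyme and the p97 complex, 3 rose and 1 fell in the libraries labelled OE. RpL40 and RpS27A, which encode ubiquitin fused to ribosomal proteins, rose by 0.49 (limma adjusted p = 1.55e-05) and 0.42 (adjusted p = 6.01e-05), while the polyubiquitin genes Ubi-p63E and Ubi-p5E were at 0.20 (adjusted p = 0.0108) and -0.23 (adjusted p = 0.0152). In the RNAi experiment 1 rose and 3 fell: RpL40 by 0.28 (adjusted p = 0.000124), RpS27A by 0.20 (adjusted p = 0.00969) and Ubi-p5E by 0.12, with Ubi-p63E up by 0.20 (adjusted p = 0.00962). The fusion genes thus passed in opposite directions in the 2 experiments. Of 7 measured genes of the COP9 signalosome, a complex related to the lid, CSN6 (0.48), CSN3 (0.49) and CSN5 (0.30) rose in the libraries labelled OE, and 0 of 7 passed in the RNAi experiment. The factor gene cnc, whose mammalian relatives activate proteasome genes, rose by 0.40 (adjusted p = 0.00477) and its partner maf-S by 0.22 (adjusted p = 0.0231) in the libraries labelled OE. The RNAi experiment had maf-S at -0.31 (adjusted p = 0.000235), which was the 1 of 4 genes of this list to pass. Several of these calls were lost in part of the alternative fits. In the overexpression experiment this held for maf-S in 7 of 18, Ubi-p63E and Ubi-p5E in 6 each, CSN5 in 5, cnc in 3 and CSN3 in 2, and in the RNAi experiment for Ubi-p5E in 9 of 20, Ubqn in 8, Ubi-p63E in 6, RpS27A in 5, PI31 in 2 and RpL40 and maf-S in 1 each.

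Time dependence of the genotype difference was tested with the 5 genotype-by-time terms. In both experiments 0 members passed limma's test, and 0.0% of all genes did. At an unadjusted p under 0.05 there were 0 members in either, beside 121 (1.58%) and 336 (4.51%) of all genes. At such low shares, 0 of 33 members says little about these genes. The members of lowest p were Rpt5, Rpt6 and Rpn12 in the overexpression experiment and Rpn8, Rpn9 and Prosbeta2 in the RNAi experiment, with limma adjusted p of 0.99999 and 0.99994 for all of them.

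A daily rhythm, tested as a 24 h harmonic within each genotype, was called for 0 members in any of the 4 genotypes, where 1.2% of all genes passed in conOE, 0.601% in the libraries labelled OE, 4.1% in conRNAi and 2.18% in the libraries labelled RNAi. The members at an unadjusted p under 0.05 numbered 2, 2, 2 and 1 of 33, beside 10.2%, 9.40%, 14.9% and 12.2% of all genes. In conOE the lowest p belonged to Prosalpha7 (amplitude 0.25 on the log2 scale, limma adjusted p = 0.221), Rpt3 and Rpt1. In the libraries labelled OE it belonged to Prosalpha2 (0.27, adjusted p = 0.306), Rpn12 and Prosalpha7. In conRNAi Prosbeta5 (0.18, adjusted p = 0.182), Rpn7 and Rpn9 came first. Rpt4 in the libraries labelled RNAi came nearest to the threshold (0.21, adjusted p = 0.0973), before Prosalpha3 and Rpn12.

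In the authors' deposited table of rhythm tests, 1, 2, 2 and 2 of the 33 members had a q under 0.05 in conOE, OE, conRNAi and RNAi, where 7.59%, 7.06%, 12.8% and 10.98% of all transcripts did. In that authors' deposited table they were Prosalpha7 (q = 0.00622) in conOE and Prosalpha2 (q = 0.00299) and Rpn12 (q = 0.0299) in OE. The authors' deposited table also gave Rpn7 (q = 0.000413) and Prosbeta5 (q = 0.0266) in conRNAi and Rpt4 (q = 2.61e-06) and Prosbeta3 (q = 0.044) in RNAi.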

How the data were processed

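RNA of fly heads was sequenced by 3′ RNA-seq in 60 libraries. Per the submitters' processing notes Bowtie, TopHat and the genome build dm3 were used, with versions, counting tool, strand and normalisation not given in the sources used here. The deposited signal values are, from the values, whole numbers of reads (within 0.05) divided by 1 factor per library, in all but 1 value, which lies in the OE library of course 2 at ZT23. The deposited p-values and q-values are the authors' rhythm tests. The highest-mean transcript of each gene (CG number) was kept, and symbols came from a RefSeq table (7378 and 7186 genes by locus tag, 218 and 207 by synonym). Genotype differences were fitted with limma-trend 3.58.1 (R 4.3.3) on log2(value + 1) over all genes of a table, with time as a categorical covariate and p-values adjusted by Benjamini-Hochberg (threshold 0.05). Fold changes on this scale understate low genes. Interactions and 24 h harmonics used limma's F-test. The genotype fit was run on simulated data with known genotype changes. The interaction fit, and the harmonic fit for the labelled genotypes, were run on simulated data without such effects, so their power was not checked. The alternative fits were not run on simulated data. No sequences are printed. Libraries were grouped by label. All listed per-sample columns were used. Members and pathway lists were chosen with earlier results of these data known. Every member is named, and those of the 2 lowest p per role are given in full. The planned count model was not run: in 35 of 60 libraries the lowest value is more than 1 read, so the reads, and the depths given, rest on the largest step that makes the values whole, not on a listed value of 1 read.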

Additional observations from a re-analysis of the deposited data

How the results depend on the processing

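In the overexpression experiment 13 core and 7 regulatory genes were higher under the deposited scaling. With 1 value per course 8 core and 0 regulatory genes were (1986 of all genes, against 3155), without ZT11 or ZT19 4 regulatory genes each, and over left-out courses 1 to 6 regulatory genes were higher and 0 to 1 members lower. The RNAi experiment had 2 core and 1 regulatory gene higher. With 1 value per course 0 core and 0 regulatory genes were (672 of all genes, against 1664). Without libraries under 1000000 reads, ZT7, ZT11 or ZT19, 1 core gene was higher, and without ZT23 0 were. Without ZT7, ZT11 or ZT19, 0 regulatory genes were higher. Over left-out courses 0 to 2 core and 0 to 1 regulatory genes were higher, 0 to 2 members lower and 1067 to 1899 of all genes called. Counts of members by time or rhythm stayed at 0 under every alternative run. The shift of core against regulatory genes kept its direction in the overexpression experiment. Without Prosalpha1 and Prosalpha1R, an alternative chosen after seeing the data, it was 0.15. The planned edgeR fit was not run.

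Replicate numbers did not pair the libraries evenly. In the overexpression experiment correlations of deviations ran from -0.32 to 0.23 over 12 pairs, and 6 of 12 pairs had their own number highest. In the RNAi experiment they ran from -0.10 to 0.25 over 18 pairs, of which 8 were over 0.1. There 12 of 18 pairs had their own number highest. Whether RNAi libraries of the same number share an effect was not tested, and the main fit did not include the number. With the replicate block the overexpression calls stayed at 13 core and 7 regulatory genes, and in the RNAi experiment 1821 of all genes were called (1664 without the block) and 1 member, Prosbeta6, was called lower (adjusted p = 0.041).

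Of the 20 and 3 called members, none changed sign in any alternative. Members near 0 did, in 4 of 13 and 17 of 30 cases, and the cause was not tested. In the overexpression experiment Rpt5 turned to -0.0029 under median-ratio scaling, -0.0064 under TMM, -0.0025 without libraries under 1000000 reads, -0.0066 without ZT11 and -0.066 without ZT23. Over left-out courses Prosalpha5 ran from -0.065 to 0.16, Rpn1 from -0.062 to 0.18, Rpn8 from -0.022 to 0.17 and Rpt5 from -0.024 to 0.088.

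RNAi values that turned without libraries under 1000000 reads were Prosalpha2 0.028, Prosalpha6 -0.0034, Prosbeta4 -0.034, Rpn1 -0.032, Rpn11 -0.0016 and Rpn3 0.0015. Without ZT3 they were Prosalpha3 0.010, Prosbeta1 0.0070, Prosbeta2 0.042 and Rpn5 -0.0093, and without ZT7 Prosbeta4 -0.028, Rpn1 -0.027 and Rpn5 -0.0042. Without ZT11 they were Prosalpha7 0.015 and Rpn8 0.045, without ZT15 Prosalpha7 0.017 and Rpn7 0.020, and without ZT19 Prosbeta4 -0.0017. Without ZT23 they were Prosalpha2 0.021, Prosbeta4 -0.034, Rpn1 -0.040, Rpn11 -0.0021, Rpt6 0.0030 and cbt 0.015. Over left-out courses Prosalpha2 ran from -0.19 to 0.15, Prosalpha3 from -0.20 to 0.055, Prosalpha4 from -0.047 to 0.087, Prosalpha6 from -0.031 to 0.069 and Prosalpha7 from -0.13 to 0.024. Prosbeta1 ran from -0.091 to 0.036, Prosbeta2 from -0.18 to 0.048, Prosbeta4 from -0.072 to 0.059 and Prosbeta7 from -0.068 to 0.086. Rpn1 ran from -0.069 to 0.10, Rpn3 from -0.21 to 0.046, Rpn5 from -0.030 to 0.052, Rpn7 from -0.10 to 0.021, Rpn8 from -0.14 to 0.0056 and Rpn11 from -0.0091 to 0.15. Rpt3 ran from -0.011 to 0.13, Rpt6 from -0.11 to 0.038 and cbt from -0.10 to 0.010.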
